A study of Homo sapiens with 6 samples.

Results

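The mitochondrial genome encodes 37 genes, and all of them were found by their symbols, which start with MT-, among the 58302 genes of the RIP-seq table. They comprised 13 mRNAs, 2 rRNAs and 22 tRNAs, and each class is described apart. The cells were SW480 and DLD-1, established human colorectal cancer (CRC) lines of genotype WT that had no treatment. In each line there was 1 library of Input RNA, 1 of RNA immunoprecipitated with an antibody to NAT10 (RIP) and 1 of RNA immunoprecipitated with an antibody to N4-acetylcytidine (ac4C, acRIP), and the question was which RNAs NAT10 binds and which carry ac4C. No group had a replicate, since each was 1 library, and comparisons below are between single libraries with no test, except for a limma fit given at the end that takes the lines as replicates. The RIP table and the acRIP table each hold an Input column per line, which gave 6 columns of values, 2 of RIP and 4 of Input. The series lists 1 Input sample per line, yet both Input columns of a line differ in values and totals. Whether they come from separate libraries is not stated, so the 4 Inputs below are columns and not 4 independent samples. Values are FPKM, read fragments scaled by gene length and library size, which set genes side by side per length. The acRIP table does not name its unit and was read as FPKM as well.

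Human mitochondrial DNA is transcribed from both strands into long precursors that carry mRNAs and rRNAs punctuated by tRNAs, and excision of the tRNAs by RNase P and ELAC2 frees the RNAs between them. The heavy-strand precursor, read as the plus strand of the reference, holds both rRNAs and all mRNAs except MT-ND6, whereas MT-ND6 and a set of tRNAs come from the light-strand precursor. The mRNAs encode subunits of the respiratory chain and ATP synthase, and NAT10 is known as the enzyme that makes ac4C in cytosolic tRNA, rRNA of the small ribosomal subunit and mRNA.

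The files kept whole reads for all 37 genes in all 6 columns, within 0.01 read, once FPKM was multiplied by the RefSeq gene length. The library totals that gave these reads were 29628966 and 25189477 in the RIP libraries (labels SW480 and DLD-1), 14617145 and 13498777 in their Inputs, and 11007688 and 10817661 in the Inputs of the acRIP table. The libraries did not pair by label. Across 16183 nuclear protein-coding genes, the RIP library labelled SW480 correlated better with the Input labelled DLD-1 (Pearson r of log2(FPKM + 1) 0.944) than with the Input labelled SW480 (0.869), and the RIP library labelled DLD-1 better with the Input labelled SW480 (0.9502 against 0.853). With the acRIP-table Inputs the order was alike, at 0.933 against 0.857 and at 0.941 against 0.848. RIP libraries are therefore named by their labels below, ratios over the other label's Input are given where they differ, and both RIP libraries are also compared with all 4 Inputs, which needs no pairing. As a check of the cells, 6 of 8 epithelial markers reached 1 FPKM in all 6 columns, CDX1 stayed under 1 in all of them, and all 3 leucocyte, 3 fibroblast and 2 endothelial markers stayed under 1. NAT10 itself was at 20.8 and 14.3 FPKM in the RIP libraries (labels SW480 and DLD-1) and between 12.96 and 23.0 FPKM in the Inputs.

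Mitochondrial mRNAs were among the most abundant RNAs of each library. Their share of all FPKM was 14.2% in the SW480-labelled and 15.2% in the DLD-1-labelled RIP library, 20.2% and 17.8% in their Inputs, and 15.7% and 15.4% in the Inputs of the acRIP table. Among the 10 genes with the highest FPKM there were between 6 and 9 mitochondrial mRNAs in each column, and the top gene was a 7SL RNA gene or pseudogene in each. The rRNAs held between 0.165% and 0.292% of the FPKM sum and the tRNAs between 0.108% and 0.772%. The tRNA share was 0.131% and 0.108% in the RIP libraries, below the 0.391% to 0.772% of the 4 Inputs, while the rRNA share was 0.243% and 0.292%, above the 0.165% to 0.211% of the Inputs. FPKM shares move with the other RNAs of a library, and the share of 7SL RNAs was 9.65% and 16.2% in the RIP libraries against 19.1% to 36.0% in the Inputs. Without 7SL RNAs in the sum, the tRNA shares of the RIP libraries stayed below all Inputs, at 0.145% and 0.129% against 0.509% to 1.21%, whereas the rRNA share of the RIP library labelled SW480, 0.269%, lay inside the 0.204% to 0.284% of the Inputs. The shares describe the make-up of each library and give no amount of RNA recovered. Between bulk Inputs, a lower level in all cells and a lower level in part of them cannot be told apart.

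Ratios of RIP over Input are given on a log2 scale after adding 1 FPKM to both values, which makes differences of low genes look smaller. The 13 mRNAs had a median of -0.74 in SW480 and -0.41 in DLD-1, against 0.17 and -0.01 over the 13870 genes tested. The 20 tRNAs above 0 in RIP or Input had medians of -1.25 and -1.98, and the rRNAs went opposite ways. In SW480, 18 of 37 genes were at least 2-fold below Input, where 14.4% of all tested genes were, and in DLD-1 14 of 37 were, where 19.8% of all tested genes were. By class these were 6 mRNAs, 1 rRNA and 11 tRNAs in SW480 and 2 mRNAs, 0 rRNAs and 12 tRNAs in DLD-1. Over the other label's Input the counts were 13 of 37 in SW480 and 16 of 37 in DLD-1. No share of all tested genes was computed for that pairing. In SW480 MT-ND2, MT-CYB, MT-CO2, MT-ATP8 and MT-RNR1 were then less than 2-fold below, at -0.99, -0.93, -0.78, -0.51 and -0.75. In DLD-1 MT-ATP8 then passed the fold, at -1.13. At least 2-fold above Input were 6 genes in SW480, all tRNAs, where 21.0% of all tested genes were, and 9 in DLD-1, where 17.9% of all tested genes were. Those 9 were 5 tRNAs, 3 mRNAs and MT-RNR2. In both lines 13 genes were at least 2-fold below, MT-ND1, MT-ND6 and 11 tRNAs, where 4.46% of all tested genes were, and 5 were at least 2-fold above, all tRNAs, where 4.4% of all tested genes were. Compared without pairing, both RIP libraries lay below all 4 Inputs for 17 of 37 genes, where 6.07% of all tested genes did, and above all 4 for 5 genes, where 24.5% of all tested genes did. Of the 17, 5 were mRNAs, 1 was an rRNA and 11 were tRNAs. These shares depend on scaling, since over all tested genes the Inputs of the acRIP table lay lower than those of the RIP table, by a median log2 difference of -0.43 in SW480 and -0.50 in DLD-1. With all columns scaled to the same median of nuclear protein-coding genes, 21 genes lay below all Inputs, where 15.1% of all tested genes did, and 4 above, where 13.6% did. Over the other label's Input the ratio moved by more than 1.5-fold for 13 of 20 tRNAs in each line and for 0 of 13 mRNAs and 0 of 2 rRNAs, and its sign turned for MT-TF and MT-TA in DLD-1 (from -0.27 to 1.11 and from 0.66 to -0.92). Some mRNA ratios moved by just under that limit, in SW480 MT-ATP8 from -1.09 to -0.51 and MT-ND2 from -1.55 to -0.99.

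**Figure D1:**
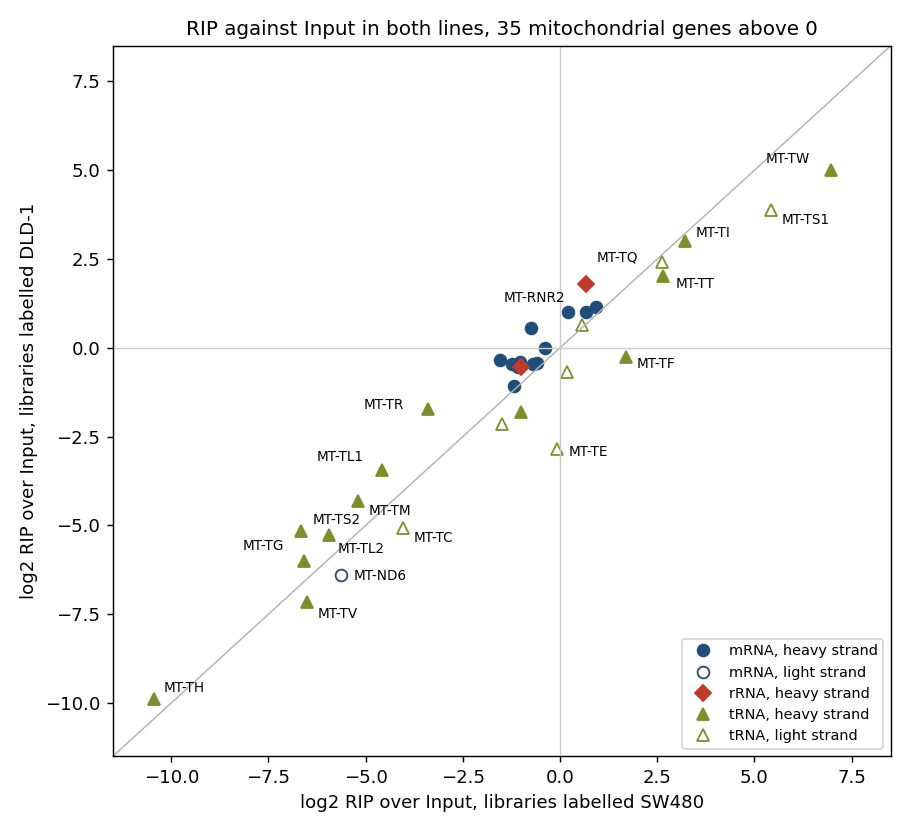
Each point is a mitochondrial gene above 0 in RIP or Input, with its log2 RIP over Input ratio in the libraries labelled SW480 (x axis) and DLD-1 (y axis), coloured by class, with filled symbols for the heavy strand and open symbols for the light strand; the diagonal marks equal ratios. The heavy-strand mRNAs sit between -1.55 and 1.15, whereas tRNAs spread from -10.43 to 6.97 and MT-ND6 stands at -5.64 and -6.39.

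Across the 13 mRNAs the ratios of both lines correlated at Spearman 0.77 and Pearson 0.97, and across the 20 tRNAs at 0.97 and 0.97. These are descriptions across genes, which are not independent and share libraries and gene lengths, and the mRNA value of Pearson includes MT-ND6, which stands far from the rest.

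MT-ND6, a complex I subunit and the only mRNA of the light strand (chrMT:14149-14673, GRCh38), showed the widest gap among the mRNAs. It was at 137 and 60.3 FPKM in the RIP libraries (labels SW480 and DLD-1), 6869 and 5135 in their Inputs, and 7942.5 and 5521 in the Inputs of the acRIP table. Behind these values stood 2124 and 798 reads in the RIP libraries and between 31354 and 52711 in the Inputs. Both RIP libraries lay far below all 4 Inputs, and the log2 ratio was -5.64 in SW480 and -6.39 in DLD-1 (counting SE 0.03 and 0.05). The gene next to it, MT-ND5 on the heavy strand, starts at 12337 and ends at 14148, so MT-ND6 begins at the following base. MT-ND6 over MT-ND5 was 0.0265 and 0.00979 in the RIP libraries and between 1.55 and 1.67 in the 4 Inputs. Whether the counting used strand is not stated in the sources used here, and without it reads of MT-ND6 and of RNA antisense to it cannot be told apart.

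MT-ND3, MT-ND4L and MT-ND5, also subunits of complex I, lay on the other side. MT-ND3 was at 1582 and 1814 FPKM in the RIP libraries, 827 and 816 in the Inputs of the RIP table, and 733 and 748 in those of the acRIP table. MT-ND4L was at 1763 and 2221 FPKM in the RIP libraries, 1113 and 1105 in the Inputs of the RIP table, and 964 and 992 in those of the acRIP table. In both genes the RIP libraries stood above all 4 Inputs, which differed among themselves by less than the distance to the RIP libraries. The log2 ratios were 0.94 in SW480 and 1.15 in DLD-1 for MT-ND3, and 0.66 in SW480 and 1.01 in DLD-1 for MT-ND4L. MT-ND5 was at 5147 and 6162 FPKM in the RIP libraries, 4437 and 3075 in the Inputs of the RIP table, and 4816 and 3343 in those of the acRIP table, the RIP library labelled SW480 lying close above the highest Input, and its ratio was 0.21 in SW480 and 1.002 in DLD-1. Scaled to the median of nuclear protein-coding genes, MT-ND3 and MT-ND4L still lay above all Inputs and MT-ND5 did not, at -0.03 in SW480 after centring and -0.44 in SW480 and 0.29 in DLD-1 over the scaled Input of the acRIP table.

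MT-ND4L shares 7 bases with MT-ND4 on the same bicistronic mRNA, as MT-ATP8 shares 46 bases with MT-ATP6. FPKM of the short reading frames did not follow that of their long partners. MT-ND4L over MT-ND4 was 0.251 and 0.279 in the RIP libraries and between 0.0974 and 0.128 in the Inputs. MT-ATP8 over MT-ATP6 was 0.125 and 0.116 in the RIP libraries and between 0.132 and 0.208 in the Inputs. Relative to its long partner, MT-ND4L was thus higher in RIP and MT-ATP8 lower. How the counting placed reads that span both frames of a pair is not given, and its part in these ratios was not tested. MT-ND4, a complex I subunit, was at 7014 and 7971 FPKM in the RIP libraries, 11430.3 and 10973 in the Inputs of the RIP table, and 8108 and 7738 in those of the acRIP table. Its ratio was -0.70 in SW480 and -0.46 in DLD-1, and MT-ND4 lay below the Inputs of the RIP table, while the RIP library labelled DLD-1 overlapped the Inputs of the acRIP table as deposited. Once scaled, both RIP libraries lay below all 4 Inputs, at -0.55 in DLD-1 over the acRIP table.

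The ATP synthase subunits MT-ATP6 and MT-ATP8 were below all Inputs in both RIP libraries, MT-ATP6 by little. MT-ATP8 was at 462 and 452 FPKM in the RIP libraries, 988 and 658 in the Inputs of the RIP table, and 1076 and 567 in those of the acRIP table. MT-ATP6 was at 3697 and 3899.9 FPKM in the RIP libraries, 4840.03 and 3902 in the Inputs of the RIP table, and 5182 and 4290.3 in those of the acRIP table, so that in DLD-1 the RIP and Input values of the RIP table were nearly equal. The ratios were -1.09 in SW480 and -0.54 in DLD-1 for MT-ATP8, and -0.39 and -0.0008 for MT-ATP6.

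The complex IV subunits differed from each other. MT-CO2 was at 6842 and 8849.5 FPKM in the RIP libraries, 13975 and 11778 in the Inputs of the RIP table, and 11052 and 9175 in those of the acRIP table, below all Inputs in both RIP libraries, with a ratio of -1.03 in SW480 and -0.41 in DLD-1. MT-CO1, the mRNA with the highest FPKM in both RIP libraries, was at 9149.9 and 10529 FPKM in the RIP libraries, 13718.5 and 14100.2 in the Inputs of the RIP table, and 9874 and 9973 in those of the acRIP table, and the RIP library labelled DLD-1 lay above the Inputs of the acRIP table as deposited. Once scaled, both RIP libraries lay below all 4 Inputs, and the ratio in DLD-1 was -0.51 over the acRIP table. Over the RIP table the ratio of MT-CO1 was -0.58 in SW480 and -0.42 in DLD-1. MT-CO3 was the mRNA whose ratio had opposite signs in the lines as labelled, -0.74 in SW480 and 0.56 in DLD-1. Its values were 4342 and 7387 FPKM in the RIP libraries, 7268 and 5009 in the Inputs of the RIP table, and 5091 and 3239 in those of the acRIP table, and the RIP values lay inside the range of the Inputs in one library and above it in the other. Over the other label's Input the ratio of MT-CO3 was -0.21 in SW480 and 0.02 in DLD-1.

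Of the remaining mRNAs, MT-ND1 and MT-ND2 encode complex I subunits and MT-CYB the cytochrome b of complex III. MT-ND1 was at 7209 and 7384 FPKM in the RIP libraries, 16368 and 15709.8 in the Inputs of the RIP table, and 12137 and 13078 in those of the acRIP table, with both RIP libraries well under every Input. It was the mRNA with the highest FPKM in each Input, and it alone among heavy-strand mRNAs was at least 2-fold below Input in both lines, at -1.18 in SW480 and -1.09 in DLD-1. MT-ND2 was at 5221 and 8146 FPKM in the RIP libraries, 15311 and 10355.5 in the Inputs of the RIP table, and 10546.5 and 6938 in those of the acRIP table, and MT-CYB at 4725 and 6559 FPKM in the RIP libraries, 11118 and 9028 in the Inputs of the RIP table, and 7959.6 and 6349 in those of the acRIP table. In both genes only the RIP library labelled SW480 lay under all 4 Inputs as deposited, whereas once scaled both RIP libraries did, with ratios in DLD-1 of -0.36 for MT-ND2 and -0.54 for MT-CYB over the acRIP table. The ratios were -1.55 in SW480 and -0.35 in DLD-1 for MT-ND2, and -1.23 in SW480 and -0.46 in DLD-1 for MT-CYB. Over the other label's Input both genes came closer between lines, at -0.99 and -0.91 for MT-ND2 and -0.93 and -0.76 for MT-CYB.

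**Figure D2:**
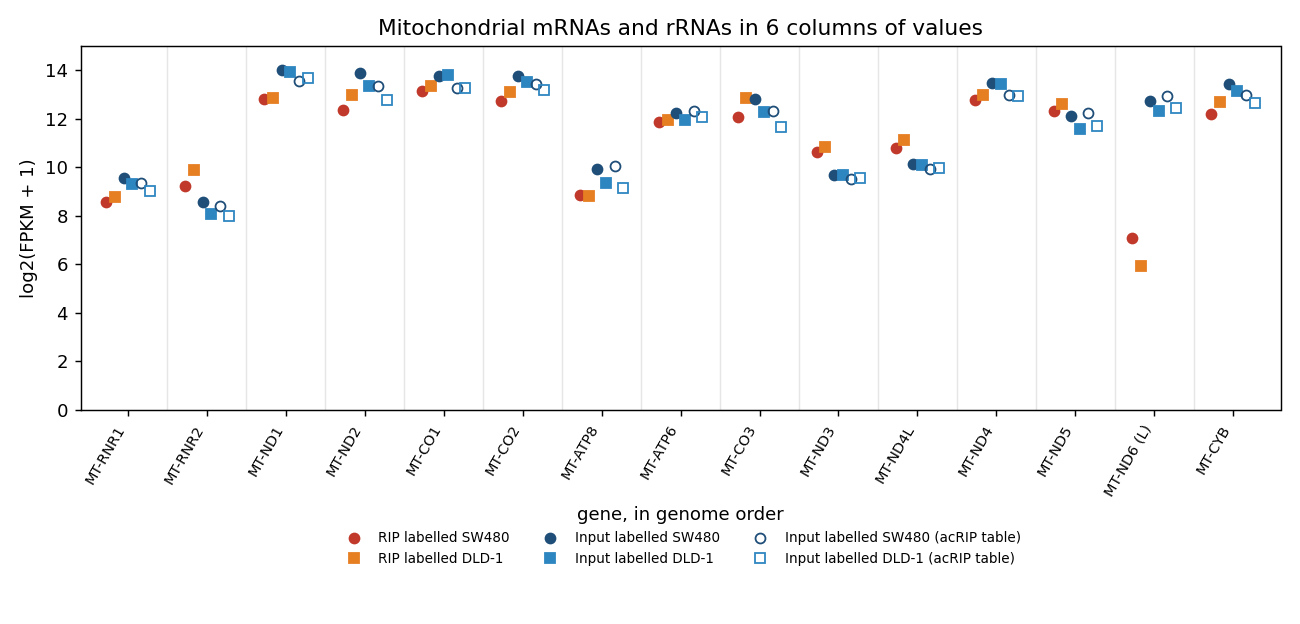
Levels of the 2 rRNAs and 13 mRNAs as log2(FPKM + 1) (y axis) in genome order (x axis), with 1 point per column: RIP in red and orange, Inputs of the RIP table as filled blue symbols and of the acRIP table as open blue symbols, circles for SW480 and squares for DLD-1; (L) marks the light-strand gene. MT-ND6 stands at 137 and 60.3 FPKM in RIP against 5135 to 7942.5 FPKM in the Inputs, while MT-ND3, MT-ND4L and MT-RNR2 lie above all their Inputs.

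The rRNA genes, which lie side by side with MT-TV between them, went opposite ways. MT-RNR1, the rRNA of the small mitoribosomal subunit (chrMT:648-1601), was at 375 and 435 FPKM in the RIP libraries (labels SW480 and DLD-1), 752 and 630.1 in their Inputs, and 650.01 and 520.2 in the Inputs of the acRIP table. MT-RNR2, the rRNA of the large subunit (chrMT:1671-3229), was at 605 and 939 FPKM in the RIP libraries (labels SW480 and DLD-1), 377 and 269.7 in their Inputs, and 336 and 252 in the Inputs of the acRIP table. Both RIP libraries lay below all 4 Inputs for MT-RNR1 and above all 4 for MT-RNR2. The log2 ratios were -1.002 in SW480 and -0.53 in DLD-1 for MT-RNR1, and 0.68 in SW480 and 1.80 in DLD-1 for MT-RNR2, with counting SEs of 0.02 each. The ratio of MT-RNR2 to MT-RNR1, which no scaling of a library can move, was 1.61 and 2.16 in the RIP libraries and between 0.428 and 0.517 in the 4 Inputs. In FPKM both rRNAs stood below most mitochondrial mRNAs in every column, although rRNA is known as the most abundant RNA of mitochondria. How rRNA was removed, if it was, is not given in the sources used here.

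The tRNAs were measured as parts of libraries made with a kit for long RNA, and their values rest on few reads: the 22 tRNAs together had 1071 and 875 reads in the RIP libraries (labels SW480 and DLD-1), 2720 and 1859 in their Inputs, and 3187 and 2236 in the Inputs of the acRIP table. The tables do not separate reads of tRNAs from reads of precursors that contain them. MT-TH, MT-TS2 and MT-TL2, for histidine, serine and leucine, form an unbroken run (chrMT:12138-12336) between MT-ND4 and MT-ND5, and the run held 0 and 2 reads in the RIP libraries against between 723 and 1544 in the Inputs. The mRNAs on both sides of it held between 276314 and 286355 reads each in both RIP libraries.

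MT-TH was the tRNA with the highest FPKM in every Input. It was at 0 and 0 FPKM in the RIP libraries (labels SW480 and DLD-1), 1383 and 944 in their Inputs, and 1214 and 875 in the Inputs of the acRIP table. A count of 0 allows up to 3 reads, which on its 69 bases is 1.47 and 1.73 FPKM in the RIP libraries, so MT-TH was at least 943-fold lower than Input in SW480 and at least 547-fold lower in DLD-1. Such limits, here and below, take the value of the other library as measured, without its own counting error. MT-TS2 was at 0 and 1.35 FPKM in the RIP libraries, 99.7 and 82.9 in the Inputs of the RIP table, and 89.3 and 103 in those of the acRIP table, at least 58.1-fold lower in SW480 and, from 2 reads against 66, 61.6-fold lower in DLD-1 (exact 95% interval of the counts 16.4 to 519). MT-TL2 was at 0 and 0 FPKM in the RIP libraries, 60.7 and 37.6 in the Inputs of the RIP table, and 5.12 and 5.21 in those of the acRIP table, and its Inputs differed by table, with 4 reads in each Input of the acRIP table.

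MT-TV, for valine, lies between the rRNAs and touches both. It was at 0.489 and 0 FPKM in the RIP libraries, 135 and 141 in the Inputs of the RIP table, and 149 and 104 in those of the acRIP table, that is 1 and 0 reads in RIP beside 78 to 136 in the Inputs. It was 276-fold lower than Input in SW480 (exact 95% interval 48.7 to 10968) and at least 81.5-fold lower in DLD-1. MT-TG, for glycine, fills the space between MT-CO3 and MT-ND3 and was at 0 and 0 FPKM in the RIP libraries, 95.6 and 63.2 in the Inputs of the RIP table, and 111 and 57.1 in those of the acRIP table, at least 64.2-fold and 36.1-fold lower. MT-TL1, for leucine, follows MT-RNR2 and was at 2.25 and 3.71 FPKM in the RIP libraries, 76.6 and 50.4 in the Inputs of the RIP table, and 139 and 90.0 in those of the acRIP table, with ratios of -4.58 in SW480 and -3.45 in DLD-1. For each of these 3 genes both RIP libraries lay below all 4 Inputs, although the rRNA or mRNA genes beside them held at least 10449 reads each in RIP.

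Other heavy-strand tRNAs held more in RIP. MT-TW, for tryptophan, which follows MT-ND2, was at 124 and 137 FPKM in the RIP libraries, 0 and 3.27 in the Inputs of the RIP table, and 6.68 and 5.44 in those of the acRIP table, and it was the one tRNA above all 4 Inputs. In reads these were 250 and 234 in RIP and 0, 3, 5 and 4 in the Inputs. Over RIP-table Inputs alone, RIP was at least 41.1-fold higher in SW480 and 41.8-fold higher in DLD-1 (exact 95% interval 14.1 to 204). The log2 ratios of MT-TW there were 6.97 in SW480 and 5.01 in DLD-1. With acRIP-table values as the divisor, after scaling, they were smaller, at 3.55 in SW480 and 3.91 in DLD-1. With the other label's Input as the divisor they were 4.87 in SW480 and 7.10 in DLD-1. MT-TI, for isoleucine, which follows MT-ND1, was at 82.2 and 112 FPKM in the RIP libraries, 7.93 and 12.9 in the Inputs of the RIP table, and 126 and 25.5 in those of the acRIP table, above the Inputs of its own table at 3.22 in SW480 and 3.02 in DLD-1. The acRIP-table Input labelled SW480 lay above both RIP libraries, and over that Input, scaled, the ratio turned to -1.14. MT-TT, for threonine, which follows MT-CYB, was at 70.1 and 132 FPKM in the RIP libraries, 10.4 and 31.4 in the Inputs of the RIP table, and 34.4 and 91.0 in those of the acRIP table, with ratios of 2.64 in SW480 and 2.03 in DLD-1, and over the scaled acRIP-table Input the ratio in DLD-1 was -0.05.

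MT-TF, for phenylalanine, was at 36.6 and 24.0 FPKM in the RIP libraries, 10.6 and 29.2 in the Inputs of the RIP table, and 5.12 and 40.4 in those of the acRIP table, and RIP and Input values overlapped. MT-TD, for aspartate, was at 3.47 and 1.75 FPKM in the RIP libraries, 8.05 and 8.72 in the Inputs of the RIP table, and 8.02 and 4.08 in those of the acRIP table, from 3 to 8 reads a column, which sets it below all Inputs by a few reads. MT-TM, for methionine, was at 11.9 and 12.3 FPKM in the RIP libraries, 473 and 261 in the Inputs of the RIP table, and 32.1 and 5.44 in those of the acRIP table. The Inputs of the RIP table stood far above RIP, at -5.20 in SW480 and -4.31 in DLD-1, and over those of the acRIP table, scaled, the ratio was -1.88 in SW480 and 0.53 in DLD-1. MT-TR, for arginine, was listed at 0 in both RIP libraries and had 9, 2, 1 and 2 reads in the Inputs, and MT-TK, for lysine, was listed at 0 in all 6 columns.

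The light strand carries 8 of the tRNAs, and their Inputs depended on the table. MT-TS1, for serine, was at 42.1 and 13.8 FPKM in the RIP libraries, 0 and 0 in the Inputs of the RIP table, and 353 and 598 in those of the acRIP table. MT-TQ, for glutamine, was at 5.16 and 9.92 FPKM in the RIP libraries, 0 and 1.03 in the Inputs of the RIP table, and 280.1 and 240.1 in those of the acRIP table. RIP lay above the Inputs of the RIP table and far below those of the acRIP table, so the sign of the ratio turned with the table. The ratio of MT-TS1 was 5.43 in SW480 and 3.89 in DLD-1 over the first and -3.57 and -5.92 over the second, and that of MT-TQ was 2.62 in SW480 and 2.43 in DLD-1 over the first and -6.04 and -5.05 over the second. MT-TA, for alanine, was at 3.42 and 0.575 FPKM in the RIP libraries, 1.98 and 0 in the Inputs of the RIP table, and 86.9 and 8.04 in those of the acRIP table, and MT-TY, for tyrosine, at 7.16 and 2.41 FPKM in the RIP libraries, 6.22 and 4.49 in the Inputs of the RIP table, and 149 and 98.0 in those of the acRIP table. Both rested on at most 14 reads in each column of the RIP table, and over the Inputs of the acRIP table their ratios were between -5.45 and -3.05.

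MT-TE, for glutamate, lies beside MT-ND6 and was at 41.6 and 10.4 FPKM in the RIP libraries, 43.6 and 80.5 in the Inputs of the RIP table, and 878 and 371 in those of the acRIP table. MT-TP, for proline, was at 98.8 and 50.8 FPKM in the RIP libraries, 279.7 and 227 in the Inputs of the RIP table, and 476 and 257 in those of the acRIP table, and MT-TC, for cysteine, at 0 and 0 FPKM in the RIP libraries, 15.5 and 32.6 in the Inputs of the RIP table, and 39.9 and 23.8 in those of the acRIP table. These 3 light-strand tRNAs lay below all 4 Inputs in both RIP libraries, MT-TE in SW480 by a ratio of only -0.07 over the Input of the RIP table. Against its Input values as measured, which rest on only 15 and 29 reads, MT-TC was at least 10.1-fold lower in SW480 and at least 18.0-fold lower in DLD-1. MT-TN, for asparagine, was listed at 0 in 5 of 6 columns and at 18.7 FPKM, from 15 reads, in the acRIP-table Input labelled SW480.

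**Figure D3:**
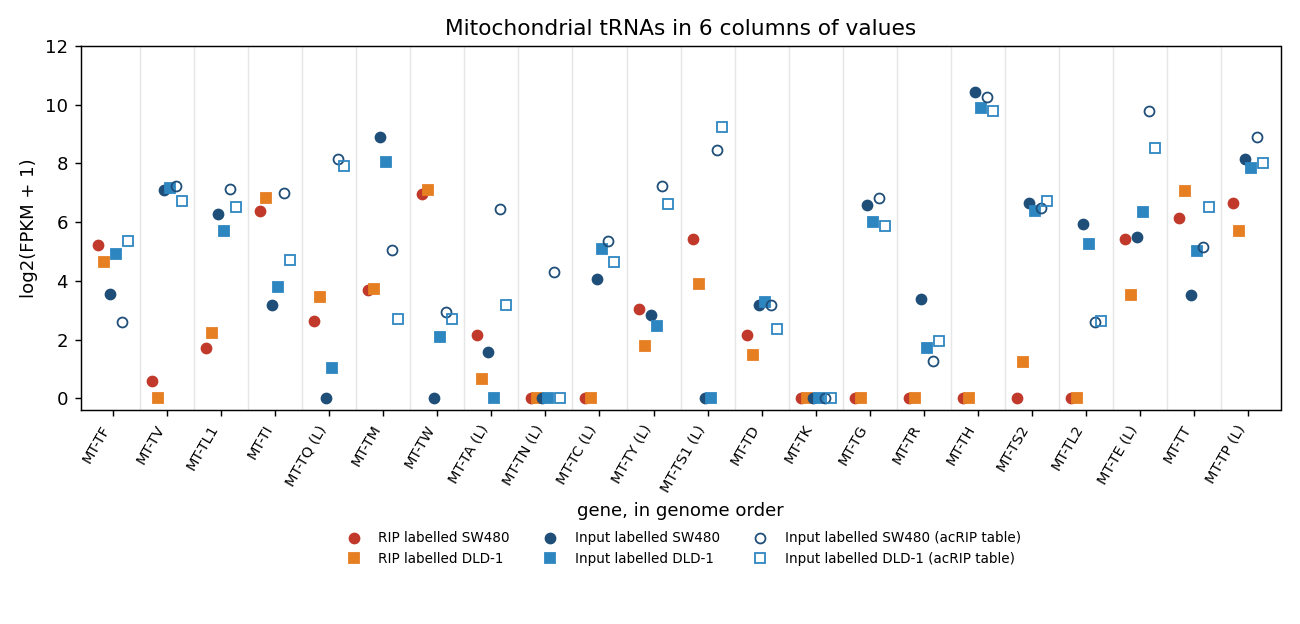
Levels of the 22 tRNAs as log2(FPKM + 1) (y axis) in genome order (x axis), with the same colours and symbols as for the mRNAs; (L) marks light-strand genes. MT-TH, MT-TS2, MT-TL2, MT-TG and MT-TV sit at or near 0 in RIP, MT-TW stands above all Inputs, and MT-TQ and MT-TS1 show open symbols (acRIP-table Inputs) far above filled blue ones.

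Setting both Inputs of a line side by side gave the size of this difference. In SW480, 8 of 8 light-strand tRNAs were higher in the acRIP table, 7 of them at least 2-fold, with a median log2 difference of 4.34, and in DLD-1 6 of 8 were higher and 5 at least 2-fold, with a median of 2.68. Over all tested genes 18.5% in SW480 and 21.2% in DLD-1 differed at least 2-fold between the tables, in either direction. Light-strand tRNAs took 12.8% and 17.1% of the tRNA FPKM sum in the Inputs of the RIP table, 54.3% and 53.1% in those of the acRIP table, and 37.4% and 17.2% in the RIP libraries. The heavy-strand tRNAs had median differences of -0.00 and 0.11 between tables, the mRNAs -0.34 and -0.26, and no mRNA or rRNA differed 2-fold. The median over all tested genes was -0.43 and -0.50, so these classes stood above it. MT-ND6, also of the light strand, differed by 0.21 and 0.10 between tables, less than each light-strand tRNA in SW480, whereas in DLD-1 MT-TP (0.18), MT-TN (0.0) and MT-TC (-0.44) were near it or lower.

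Between the Inputs labelled SW480 and DLD-1, the mitochondrial mRNAs differed little. Directions are by label, and as the libraries did not pair by label, they would turn if the Input labels were the exchanged ones. Of 13 mRNAs, 12 were higher in the SW480 Input of the RIP table and 9 in the acRIP table, with median log2 differences of 0.30 and 0.27 against -0.05 and 0.00 over all tested genes. Of the 13, 0 differed 2-fold in either table, where 24.5% and 24.1% of all tested genes did in either direction (9.83% and 10.8% higher and 14.6% and 13.4% lower in the SW480-labelled Input). MT-ATP8 and MT-ND2 had the widest differences in the RIP table, at 0.58 and 0.56, and were at 0.92 and 0.60 in the acRIP table. MT-RNR1 was higher in the SW480-labelled Input by 0.26 and 0.32, and MT-RNR2 by 0.48 and 0.41. Among tRNAs, 10 of 19 were higher in the SW480-labelled Input of the RIP table and 15 of 21 in the acRIP table.

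In the acRIP-seq data, ac4C peaks were listed for mRNAs and rRNAs and not for tRNAs. Of 9536 peaks called in SW480, 10 lay on mitochondrial genes, on 8 mRNAs and both rRNAs, and of 13964 called in DLD-1, 15 did, on 10 mRNAs and both rRNAs. The list called on the pooled libraries held 12 of 15622. All mitochondrial peaks of the 3 lists were on the plus strand, whereas nuclear peaks divided into 4980 on the plus and 4546 on the minus strand in SW480. Peaks are listed by host gene, and among the mRNAs and rRNAs only MT-ND6 is not a plus-strand gene. The strand of the listed peaks is therefore no measure of a strand preference of ac4C. MT-ND1, MT-ND6, MT-ATP8 and all 22 tRNAs were not listed as the host of a peak, although MT-ND1 had the highest mRNA level in the Inputs. The peak listed for MT-ATP6 (chrMT:8527-9177) covers the 46 bases that MT-ATP8 shares with it. The lists hold called peaks and not a value per gene, so a missing peak is no measure of ac4C.

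Folds are those of the authors' caller, acRIP over Input within the peak, and are set side by side only within a list. MT-RNR2 had the highest fold of the mitochondrial peaks, 66.5 in SW480 over chrMT:1701-3229 and 104 in DLD-1 over the whole gene, chrMT:1671-3229. It exceeded 82.0% and 94.6% of all peaks in its list. MT-RNR1 followed in DLD-1 with 23.1 over its whole length and had 15.4 in SW480 over chrMT:797-1571. The mRNA peaks were lower, with a median fold of 6.47 in SW480 and 2.91 in DLD-1, and 8 of 8 and 13 of 13 lay below the median of all listed peaks, 19.5 and 14.6. Their p-values as listed were nonetheless small, and 9 of 10 and 10 of 15 mitochondrial peaks reached a log10 p of -1000 or less, as 164 and 101 peaks of the lists did.

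Among mRNAs, the highest folds were 18.5 for MT-ND3 and 16.2 for MT-CO3 in SW480 and 11.1 for MT-ATP6 and 9.20 for MT-CO3 in DLD-1. MT-ND3 had 6.39 in DLD-1 and MT-ATP6 5.94 in SW480, so the order of the mRNAs differed by line. MT-CO2 was listed at 8.02 and 4.67, MT-CO1 at 7.0 and 5.05, MT-ND5 at 4.01 and 2.84, and MT-ND4 at 3.64 and 2.40. MT-ND4L had the smallest fold of the SW480 list, 1.23, and 3.85 in DLD-1. Every SW480 peak overlapped a DLD-1 peak of the same gene (10 of 10), and 10 of 15 DLD-1 peaks overlapped one of SW480. The 5 others were on MT-ND2 (1.92) and MT-CYB (1.37), which had no SW480 peak, and second peaks on MT-CO2 (1.44), MT-ND4 (2.91) and MT-ND5 (2.45). The peaks of MT-CO2 (chrMT:7942-8269) and MT-ATP6 (chrMT:8527-9177) had identical borders in both lines.

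Peaks were long and often reached the end of the gene. They had a median length of 413 bases in SW480 and 358 in DLD-1, against 210 and 211 for nuclear peaks, and covered at least 91.6% of MT-RNR2, MT-ATP6 and MT-ND3 in both lines. In SW480 the peaks of MT-CO1, MT-CO2, MT-CO3 and MT-ND3 ended at the last base of the gene. Every listed mitochondrial peak lay inside its host gene. Whether borders at gene ends, or borders shared by both lines, come from how peaks were called was not tested. MT-CO1 carried its peak in the last 594 bases of the gene in SW480, and that of MT-ND4 began 958 bases from its start and ended 30 bases before its end. The peak of MT-ND5, by contrast, began 89 bases from the start and ended 1455 bases before the end. All mitochondrial peaks held at least 1 site of the 12-base pattern with 4 evenly spaced Cs that the lists count, compared with 56.1% and 55.1% of nuclear peaks, but their length differed too: per kilobase of peak there were 4.94 sites in SW480 and 6.11 in DLD-1 on mitochondrial genes and 5.13 and 4.63 on nuclear ones.

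**Figure D4:**
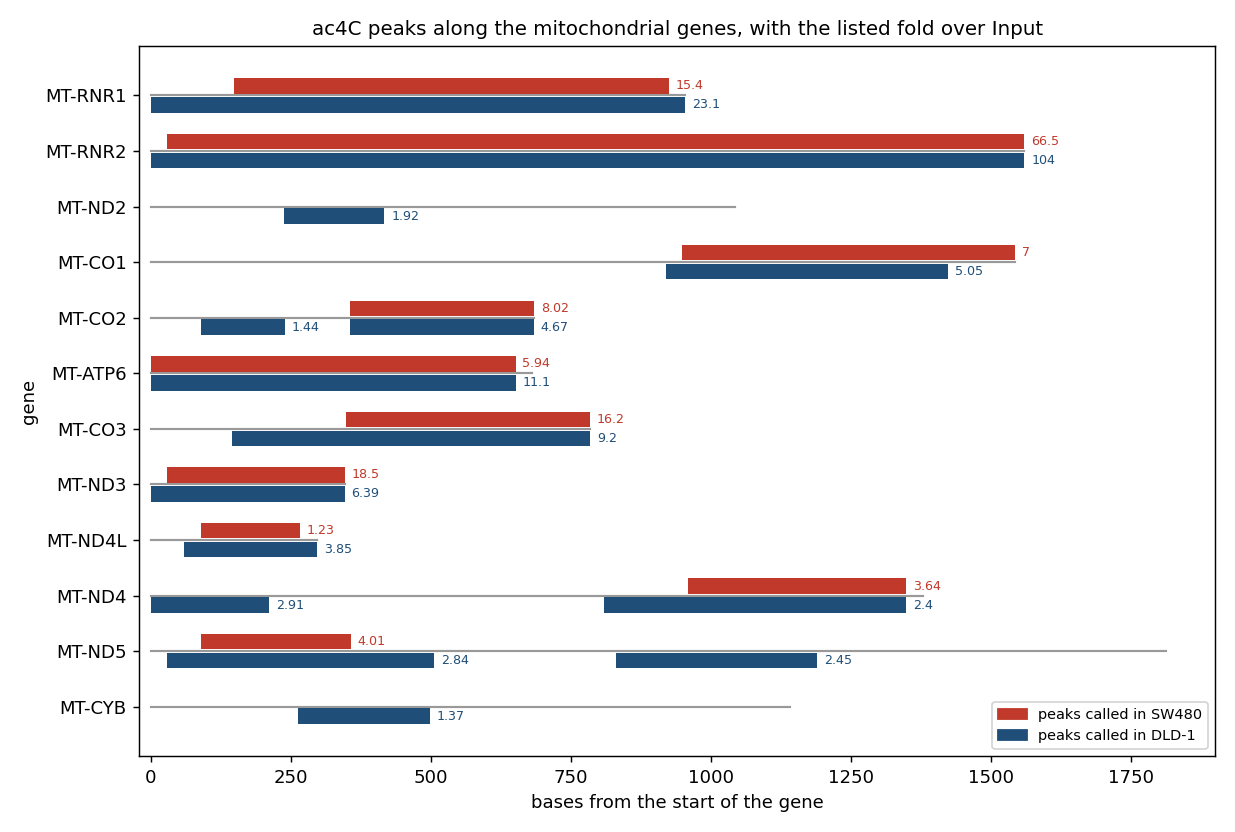
Peaks called in SW480 (red) and DLD-1 (blue) drawn along each gene in bases from its start (x axis), with the grey line as the gene and the number beside each bar as the listed fold over Input. MT-RNR2 is covered along its length with 66.5 and 104, whereas the mRNA peaks lie between 1.23 and 18.5 and in SW480 MT-CO1, MT-CO2 and MT-CO3 carry theirs up to the last base, while in DLD-1 MT-CO2 has a further peak near its start and MT-CO3 is covered over 81.5% of its length.

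Set beside the RIP data, mRNAs with a listed peak had higher RIP over Input ratios than mRNAs without one. In SW480 the 8 with a peak lay between -1.03 and 0.94 (median -0.49) and the 5 without between -5.64 and -1.09 (median -1.23). In DLD-1 the 10 with a peak lay between -0.46 and 1.15 (median -0.17) and the 3 without between -6.39 and -0.54 (median -1.09). The ranges did not overlap in either line, but over the other label's Input they did in SW480, where the lowest mRNA with a peak was at -0.78 and MT-ATP8, without one, at -0.51. MT-ATP8 was placed by listed host, although the MT-ATP6 peak covers the 46 bases they share. It was the highest mRNA without a peak in both lines, at -1.09 and -0.54. This is a description of genes that share libraries, with no test, and the split by peak was not planned beforehand. Peak folds and RIP ratios both have Input as the divisor, so a gene high in Input can be low in both. Ratios of peak hosts among all tested genes were not computed. The rRNAs broke the pattern, since both carried peaks and MT-RNR1 lay below Input.

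Nuclear copies of mitochondrial genes can take reads from them, so their rows were examined as well. Of 405 such rows, 80 were above 0 in the RIP table and 8 passed the filter on low values, some of them through high Inputs alone. Of these 8, 7 lay below Input in both lines, where 22.2% of all tested genes did, and for 4 both RIP libraries lay below all 4 Inputs, which is no support for a direction since the filter let such rows pass. MTATP6P1, a copy of the region around MT-ATP6, was at 638 and 862 FPKM in the RIP libraries, 5003 and 4114 in their Inputs, and 1842 and 1538 in the Inputs of the acRIP table. Its ratio of -2.97 in SW480 and -2.25 in DLD-1 was lower than that of MT-ATP6 itself. MTND2P28 was at -2.21 and -0.43 and MTCO1P12 at -1.13 and -0.61. All these rows together made up 0.216% and 0.262% of all FPKM in the RIP libraries and between 0.403% and 1.14% in the Inputs, so how the counting divided reads between copies was not tested for single genes such as MT-ATP6.

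Nuclear genes for mitochondrial RNA synthesis and processing were not below Input as the mRNAs of the organelle were. Of 52 listed symbols 49 were found and 46 tested, with median log2 ratios of 0.32 in SW480 and 0.23 in DLD-1, against 0.17 and -0.01 over all tested genes. Over the tested nuclear protein-coding genes the medians were 0.24 and 0.06, closer to those of the list. At least 2-fold above Input were 8 and 7 of 46, where 21.0% and 17.9% of all tested genes were, and 2 and 0 were at least 2-fold below, where 14.4% and 19.8% were. Both RIP libraries lay above all 4 Inputs for 22 of 46, where 24.5% of all tested genes did, and below for 1, where 6.07% did, the pseudouridine synthase PUS1 (-1.59 and -0.78), which was named after its values were seen. These counts are as deposited. Once scaled, 13.6% of all tested genes lay above and 15.1% below all 4 Inputs, and the list was not counted at that scaling. HSD17B10, a subunit of mitochondrial RNase P, was the one gene at least 2-fold above Input in both lines as labelled, where 4.4% of all tested genes were. It was at 66.0 and 44.7 FPKM in the RIP libraries and between 8.04 and 25.2 in the Inputs, with ratios of 1.35 and 1.18, and at 0.80 in DLD-1 over the Input of the other label.

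A limma model of RIP against Input with both lines as replicates and the line as a block, which pairs libraries by label although they did not pair so, called none of the mitochondrial genes at an adjusted p under 0.05 and none of the 13870 tested genes. The smallest adjusted p (Benjamini-Hochberg) among the 35 mitochondrial genes in that fit was 0.276, for MT-TH. At an unadjusted p under 0.05 there were 11 lower and 5 higher in RIP, MT-ND6 being the only mRNA and the other 15 tRNAs. Over all tested genes 2.96% were lower and 3.37% higher at that threshold. Without the block, 1 of the 13870 tested genes passed, MT-TH, lower in RIP (limma adjusted p 0.0313), and 13 mitochondrial genes were lower and 7 higher at an unadjusted p under 0.05, against 6.99% and 10.3% of all tested genes.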

How the data were processed

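RIP-seq and acRIP-seq libraries of SW480 and DLD-1 were grouped by their titles, with 1 library per group. The authors deposited FPKM values for the RIP and Input libraries, and a second table of Input values that was read as FPKM. The alignment and counting were done by a sequencing provider, and the processing notes of the submitters name cutadapt 2.5 and HISAT2 2.1.0. The counting tool, its use of strand and the peak caller are not given in the sources used here. The authors also deposited RIP over Input ratios, which were not used.

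The 3 deposited peak lists give a p-value, its base-10 logarithm as a score, a fold ratio of acRIP over Input, and counts of pattern sites per peak, as named in the file headers. FDR cells that a spreadsheet had turned into errors (9, 14 and 12 mitochondrial peaks in SW480, DLD-1 and the pooled list) were taken as below the threshold. Starts were moved by 1 base to count from 1, and positions are on GRCh38.

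Gene lengths and positions came from RefSeq (GRCh38.p14) for 37 of 37 genes, and light-strand genes from a list kept by hand. Reads were solved as FPKM times length. Ratios used a pseudocount of 1 FPKM. Genes tested had a mean log2(FPKM + 1) of at least 1 over the 4 libraries of the RIP table, which 35 of the 37 passed, but all 37 are reported. A gene was counted as below or above at 2-fold. The limma model of RIP against Input with the line as a block (limma 3.58.1, R 4.3.3; the fit without the block was added after seeing the data) and the solving of reads were tested on simulated data. Intervals and limits of 3 reads cover counting error only, and the limits only that of the library at 0. The 95% Wilson interval of a class's share of reads was at most 0.0166 percentage points to each side. The members and lists were chosen with earlier results of these data known, and the comparison of both RIP libraries with 4 Inputs was added after seeing the data. All mRNAs and rRNAs were named, and of the tRNAs above 0 in both Inputs the 5 with the lowest and 5 with the highest mean ratio, those at 0 throughout and those of the light strand. MT-TW, MT-TL1, MT-TM, MT-TR and PUS1 were added after their values were seen. Mitochondrial sequences were not used here.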

Additional observations from a re-analysis of the deposited data

Results flagged for a closer look

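MT-CO3, a complex IV subunit, had a log2 RIP over Input ratio of -0.74 in SW480 and 0.56 in DLD-1 as labelled, a difference of -1.30 (SW480 minus DLD-1). It stands here because the single ratio of each line lay on the other side of 0, each beyond its counting error. With 1 library per group the difference was not tested. With the Inputs exchanged between labels the ratios were -0.21 and 0.02.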

How the results depend on the processing

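Each group held 1 library, so no replicate of a group could be left out. Class medians and rRNA ratios kept their sign under each alternative. The median of the mRNAs, -0.74 in SW480 and -0.41 in DLD-1, became -0.99 and -0.47 after centring on nuclear protein-coding genes, -0.62 and -0.52 over the other label's Input, -1.02 and -0.54 over the scaled Input of the acRIP table, and -0.76 and -0.51 when scaled without 7SL and mitochondrial genes. For the tRNAs only the scaled Input of the acRIP table moved the median beyond its counting error, to -4.15 and -3.999, and with genes at 0 set to 3 reads it was -1.36 and -2.64. MT-RNR1 was at -1.24 and -0.59 after centring, -0.75 and -0.79 over the other label, -1.32 and -0.85 over the acRIP table, and in DLD-1 -0.63 without 7SL and mitochondrial genes. MT-RNR2 was at 0.44 and 1.73, 1.16 and 1.31, 0.31 and 1.31, and in DLD-1 1.70 under the same settings.

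The count of genes below Input was 0 with limma at an adjusted p under 0.05 with the line as a block, against 11 at an unadjusted p under 0.05. It was 1 at an adjusted p under 0.05 without the block (added after seeing the data). At 3-fold the count was 10 in SW480 and 13 in DLD-1, and at 1.5-fold 20 in SW480 and 15 in DLD-1. No share of all tested genes was computed at 3-fold or 1.5-fold. Over the other label's Input the count was 13 in SW480 and 16 in DLD-1, against 18 and 14 as labelled. In the pattern without pairing, 21 genes lay below and 4 above all Inputs once scaled to nuclear protein-coding genes, against 15.1% and 13.6% of all tested genes. The sign of called tRNA ratios turned over the scaled Input of the acRIP table for MT-TI (-1.14 in SW480), MT-TQ (-6.04 and -5.05), MT-TS1 (-3.57 and -5.92), MT-TM (0.53 in DLD-1) and MT-TT (-0.0549 in DLD-1). These were 7 of 66 single-gene values by line. Ratios under 2-fold that also turned there were MT-TA in both lines and MT-TY and MT-ND5 in SW480. Over all alternatives pooled, 315 of 330 values kept their side of 0, but a pseudocount of 0.1 cannot turn a sign. The cause of these changes was not tested.

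Class shares depend on the denominator. Without 7SL RNAs the mRNA share was 15.7% and 18.1% in the SW480-labelled and DLD-1-labelled RIP libraries and 26.2% and 23.2% in their Inputs, the rRNA share 0.269%, 0.348%, 0.274% and 0.227%, and the tRNA share 0.145%, 0.129%, 0.658% and 0.509%. As shares of reads they were 6.27%, 7.73%, 11.2% and 9.66% for mRNAs, 0.130%, 0.188%, 0.131% and 0.102% for rRNAs, and 0.0036%, 0.0035%, 0.0186% and 0.0138% for tRNAs, since FPKM weights short genes up. In the acRIP-table Inputs the mRNAs held 8.68% and 7.44% of reads, the latter below the 7.73% of the DLD-1-labelled RIP library. Input SW480 over Input DLD-1 in the acRIP table was 0.27 for the mRNAs, 0.32 for MT-RNR1 and 0.41 for MT-RNR2, against 0.30, 0.26 and 0.48 in the RIP table. Peak counts were the same when taken by coordinates. FDR thresholds could not be compared, since the FDR cells of nearly all mitochondrial peaks were errors. Depth limits the tRNAs most, since their median was between 3.5 and 62 reads in a column.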
